A study of Homo sapiens with 48 samples.

Results

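The BCL2 family decides whether a stressed cell keeps its mitochondrial outer membrane intact, and 10 of its genes are described here in 3 uveal melanoma cell lines treated with a chromatin remodelling inhibitor or a protein kinase C inhibitor. The genes were chosen by name: the survival proteins BCL2, BCL2L1, MCL1 and BCL2A1, the pore-forming effector BAX, and the BH3-only genes BCL2L11, BBC3, PMAIP1, BMF and BIK. They are 10 of the 58870 genes in the count tables, and each was found once. The cell lines 92-1, MEL202 and MP41 are labelled uveal melanoma, genotype WT, in every group. Each line received FHT-1015, which inhibits the ATPases SMARCA4 and SMARCA2 of the BAF chromatin remodelling complexes, or the solvent DMSO, for 4 h or 24 h. Line 92-1 also received IDE196, a protein kinase C inhibitor, or a second set of DMSO samples, for the same times. This gives 16 groups of 3 replicate libraries and 48 libraries in all. The labels call the replicates biological and give no doses. Each group is a culture of 1 established line, so differences between lines rest on 1 line each.

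Mitochondrial cell death is set by contacts between 3 kinds of BCL2 family protein. Survival proteins hold the effectors BAX and BAK1 inactive, and BH3-only proteins bind the survival proteins or the effectors and so release or activate the pore. BH3-only genes are regulated largely through transcription: BBC3 and PMAIP1 respond to DNA damage and other stress, and BCL2L11 and BMF respond to loss of growth factor signalling, in which FOXO factors and ERK signalling take part. BCL2 and BCL2A1 are known as targets of the melanocyte factor MITF in melanoma. Uveal melanomas usually carry activated Gq-class G proteins, which signal through protein kinase C. Gene counts cannot tell splice forms apart, so the long and short forms of BCL2L1, MCL1 and BCL2L11, which act differently, are summed in what follows.

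Between 11394088 and 32317711 reads were counted in genes per library. A gene is said to rise or fall where edgeR's quasi-likelihood test gave a Benjamini-Hochberg adjusted p under 0.05 over all genes tested. Replicates were more alike in 92-1 (biological coefficient of variation 0.117 and 0.112 in its FHT-1015 and IDE196 experiments) than in MP41 (0.217) and MEL202 (0.294). FHT-1015 replicate 2 of MEL202 at 4 h had 17592 genes with a read, the fewest of the 48 libraries. It is not one of the 24 h libraries, and enters their comparison only through the filter, the scaling and the shared spread. Leaving it out, the same 3 family genes were called in MEL202 at 24 h (BCL2 -1.5, BMF 2.10 and BAX -0.81 on the log2 scale, edgeR). Those changes could move little by design. The effect of leaving it out at 4 h is given with the 4 h results. The melanocytic markers PMEL, MLANA, TYRP1, TYR, SOX10 and MITF were expressed in every group, and DCT was low in 92-1 and MEL202. All 7 of these markers fell in each line with FHT-1015 at 24 h (edgeR), with median log2 changes of -3.55, -2.21 and -2.11 in 92-1, MEL202 and MP41, and with IDE196 3 of 7 were called (2 higher, 1 lower). Their part in the results was not tested. The 3 leukocyte markers reported here of 4 listed (PTPRC, CD3E and CD68) and the endothelial markers PECAM1 and CDH5 had group means of at most 2.58 and 0.23 CPM (counts scaled to a common library size by TMM), and those of epithelium (EPCAM, CDH1) at most 2.15. PTPRC fell in MEL202 at 24 h (edgeR), from 0.735 to 0.0698 CPM, and its part in the results was not tested. Among fibroblast markers DCN stayed at or below 0.46 CPM, while COL1A1 reached 24.2 and LUM 11.2 CPM in MP41. In 92-1 at 24 h COL1A1 rose with both drugs and LUM fell with FHT-1015 (edgeR), and their part in the results was not tested either. In bulk RNA, fewer cells of a type and less RNA per cell cannot be told apart.

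In DMSO the lines differed in their survival genes, with BCL2 highest in 92-1 and BCL2L1 lowest there. MCL1, which guards against BAK1 and BH3-only proteins, and BAX, the pore-forming effector, had the highest levels per kilobase of exon in every line. For 92-1, which has 2 DMSO sets, levels are those of the FHT-1015 experiment unless the IDE196 set is named. The DMSO level of MCL1 at 24 h was 54.7 ± 2.79 CPM per kilobase (SD, n = 3) in 92-1, 77.9 ± 6.78 in MEL202 and 35.8 ± 7.66 in MP41. BAX stood at 53.2 ± 2.54 in 92-1, 45.2 ± 10.6 in MEL202 and 51.6 ± 9.82 in MP41 on the same scale. At 24 h the order of MCL1 and BAX was within their spread in this set of 92-1, MCL1 was higher in MEL202, and the mean of BAX was the higher one in MP41. In the IDE196 set of 92-1 MCL1 was higher, at 74.9 ± 2.09 against 57.3 ± 10.5 for BAX. In the 4 h DMSO libraries the mean of MCL1 was the higher one in all 3 lines, at 65.6 ± 1.02 against 51.7 ± 2.87 CPM per kb in 92-1, 81.1 ± 10.04 against 49.0 ± 16.9 in MEL202 and 56.4 ± 2.07 against 40.5 ± 2.56 in MP41 (SD, n = 3). BCL2 stood at 14.8 ± 1.27 in 92-1, 10.8 ± 2.62 in MEL202 and 2.56 ± 0.056 in MP41, and at 22.5 ± 1.74 in the IDE196 set of 92-1. BCL2L1, the gene of BCL-XL, stood at 5.38 ± 0.11 in 92-1, 8.26 ± 0.69 in MEL202 and 12.4 ± 2.46 in MP41, and in the 4 h libraries at 5.51 ± 0.28, 9.89 ± 2.32 and 9.41 ± 0.63. It was not called between MEL202 and MP41 (log2 difference -0.25 ± 0.11, edgeR adjusted p = 0.0552). BCL2 was thus above BCL2L1 in 92-1 and below it in MP41. BCL2L1 is uncertain on this scale, because 43.0% of its exon bases lie opposite the antisense gene ABALON, where reads without strand are counted for neither gene. The stranded columns summed to 1.94 times its unstranded reads over all libraries, so its order against genes of near level, such as BCL2 in MEL202, can turn with the counting.

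Among the BH3-only genes in DMSO at 24 h, BMF had the highest mean in each line, at 11.1 ± 0.43 CPM per kilobase in 92-1, 15.6 ± 2.10 in MEL202 and 9.88 ± 1.32 in MP41. BBC3, the gene of PUMA, stood at 12.2 ± 2.83 in MEL202, within the spread of BMF there, against 4.85 ± 2.06 in 92-1 (8.09 ± 3.47 in the IDE196 set) and 3.26 ± 1.07 in MP41. PMAIP1, the gene of NOXA, was highest in 92-1 at 9.10 ± 0.86 (6.80 ± 0.81 in the IDE196 set), with MEL202 at 3.41 ± 1.19 and MP41 at 2.64 ± 1.08. BCL2L11, the gene of BIM, was at 1.98 ± 0.27 or less and BIK at 1.97 ± 0.53 or less in all 3 lines and both sets of 92-1. BCL2A1 was close to absent: 36 of the 48 libraries had 0 reads and the others 1 to 4, for 17 reads in all. A count of 0 allows up to 3 reads, or 0.0928 to 0.263 CPM depending on the library, by its total reads without TMM scaling and for counting error only. It did not pass the filter on low counts in any comparison, so the other 9 genes were tested.

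**Figure D1:**
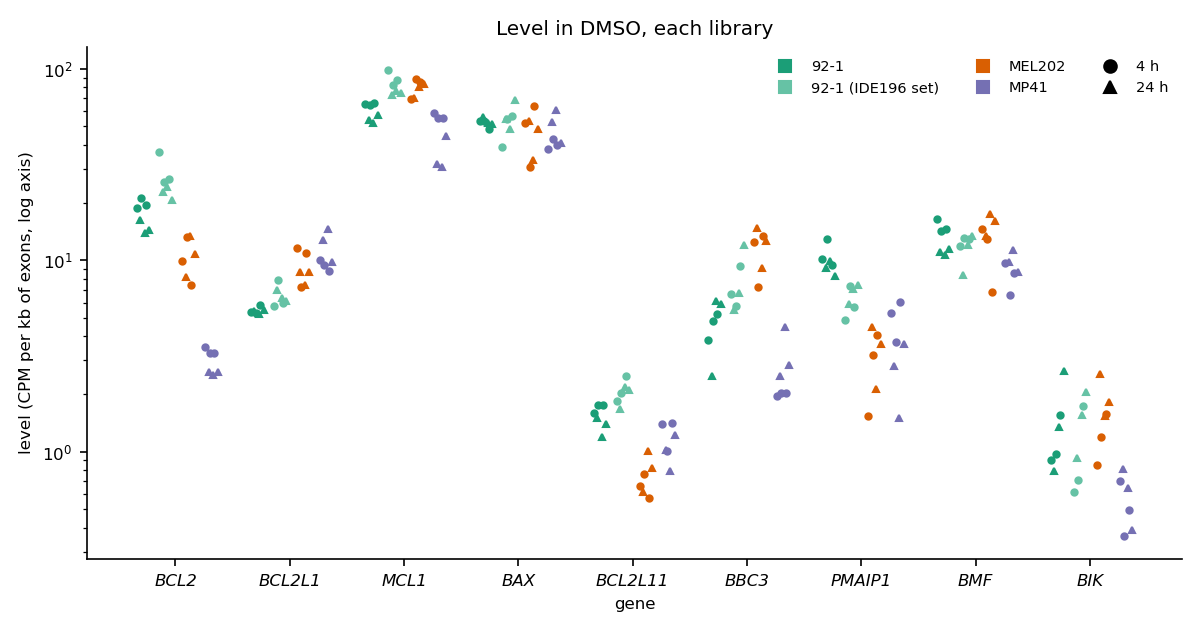
Level of 9 BCL2 family genes in DMSO, in CPM per kilobase of exon on a log axis, with 1 point per library (circles 4 h, triangles 24 h). MCL1 and BAX are highest in every line, and BCL2 is lowest in MP41, where its 24 h mean is 2.56.

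The promoters of the members differ in the short motifs they hold. The RefSeq promoter table (GRCh38.p14) holds windows for 8 of the 10 genes, 10 windows in all, with 2 each for BMF and BCL2L1. The 250 bases before each start were searched on both strands for 3 motifs that overlap each other in no match here. The first is the E-box CACGTG, which MITF and MYC family factors bind and which reads the same on both strands, and 6.34% of the 35116 windows of this length in the table hold it. The next is TCATGTG, an E-box form preferred by MITF, held by 2.52% of the windows. The last is the forkhead site TGTTTAC, which FOXO factors bind, held by 2.98% of the windows. Matches were found in 4 genes, which are printed 5′ to 3′ with the matches in capitals because they show which members carry these letters near their start.
BAX (chr19:48954625-48954874, + strand): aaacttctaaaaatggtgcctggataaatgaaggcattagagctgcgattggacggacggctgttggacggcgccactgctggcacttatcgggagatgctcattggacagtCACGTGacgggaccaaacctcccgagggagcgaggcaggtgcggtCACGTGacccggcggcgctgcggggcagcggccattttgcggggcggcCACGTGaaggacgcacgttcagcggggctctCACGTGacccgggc
BBC3 (chr19:47232668-47232917, - strand): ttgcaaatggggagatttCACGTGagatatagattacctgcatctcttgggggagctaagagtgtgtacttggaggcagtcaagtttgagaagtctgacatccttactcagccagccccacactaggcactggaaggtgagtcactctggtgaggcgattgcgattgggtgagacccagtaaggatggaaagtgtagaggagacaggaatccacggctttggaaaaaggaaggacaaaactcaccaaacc
BCL2L11 (chr2:111120664-111120913, + strand): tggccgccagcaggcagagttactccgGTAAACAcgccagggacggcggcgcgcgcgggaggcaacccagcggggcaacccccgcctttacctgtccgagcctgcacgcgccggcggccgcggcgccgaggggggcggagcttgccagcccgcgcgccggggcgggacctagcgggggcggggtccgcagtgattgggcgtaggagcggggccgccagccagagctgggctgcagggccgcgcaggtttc
BCL2A1 (chr15:79971197-79971446, - strand): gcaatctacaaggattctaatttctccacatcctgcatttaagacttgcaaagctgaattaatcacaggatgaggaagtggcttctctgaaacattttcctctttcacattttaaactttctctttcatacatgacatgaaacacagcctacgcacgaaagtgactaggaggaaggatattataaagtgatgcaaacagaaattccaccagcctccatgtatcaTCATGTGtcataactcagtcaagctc
The BAX window holds the first E-box 4 times, beginning 138, 93, 45 and 14 bases before the start. The BBC3 window holds it once, beginning 232 bases before the start. The BCL2L11 window holds GTAAACA, the forkhead site read on the opposite strand, beginning 223 bases before the start. The BCL2A1 window holds the MITF-type E-box beginning 26 bases before the start. The windows of BCL2, BCL2L1, PMAIP1 and BMF held none of these letters. A match is a description of the letters and not evidence of binding.

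The tests between lines used the mean of the 4 h and 24 h DMSO groups of the FHT-1015 experiments. Between 92-1 and MP41, 8 of the 9 genes differed (88.9%, against 65% of all genes), with 7 higher in 92-1 (33% of all genes). BCL2 was the widest, 2.52 ± 0.13 log2 units (SE) higher in 92-1 (edgeR adjusted p = 2.21e-17), and BCL2L1 was 1.01 ± 0.11 lower (3.82e-09). Between 92-1 and MEL202, 6 of 9 differed (66.7%, against 52.9%): PMAIP1 was 1.63 ± 0.23, BCL2L11 1.02 ± 0.15 and BCL2 0.67 ± 0.12 log2 units higher in 92-1. BBC3 was lower by 1.32 ± 0.21, BCL2L1 by 0.76 ± 0.11 and MCL1 by 0.44 ± 0.10 in 92-1, with adjusted p of 0.000672 or less for all 6. Between MEL202 and MP41, 6 of 9 differed (66.7%, against 56%), and 7 with 5 of the 7 alternative settings. BBC3 was 2.18 ± 0.22 and BCL2 1.85 ± 0.13 log2 units higher in MEL202. BAX was called in none of the 3 pairs by edgeR, with 95% intervals of -0.14 to 0.40, -0.10 to 0.45 and -0.23 to 0.31, while limma-voom with quality weights called all 9 genes, BAX included, between 92-1 and MP41. The labels do not say whether the lines were treated and sequenced together, so line and any difference between runs cannot be told apart. An experiment here is the set of libraries of 1 line with 1 drug and its DMSO. The 2 DMSO sets of 92-1, which share the line, differed in 6 of the 9 genes (60.4% of all genes), by at most 0.68 ± 0.12 (PMAIP1) in size. In the FHT-1015 set BBC3 was lower by 0.66 (-0.66 ± 0.21), BCL2 by 0.56 (-0.56 ± 0.09), MCL1 by 0.41 (-0.41 ± 0.06), BCL2L11 by 0.39 (-0.39 ± 0.12) and BCL2L1 by 0.23 (-0.23 ± 0.08). The BCL2L1 call was lost in 1 fit that left out a library (edgeR adjusted p = 0.088) and under 1 alternative setting. For BCL2 and MCL1 the set difference is close to the size of their difference between 92-1 and MEL202. Between 92-1 and MP41 the same holds for MCL1 (0.39) and BCL2L11 (0.40), while BBC3 differed by 0.87. These genes were higher in 92-1 than in MP41, and higher in the IDE196 set than in the FHT-1015 set. In the IDE196 set MCL1 at 4 h was 89.3 ± 8.30 CPM per kb, above the mean of 81.1 in MEL202, so the direction of the MCL1 difference at 4 h depends on the set. Of the calls between 92-1 and MP41, 2 rested on single libraries. BCL2L11 (0.40 ± 0.15, adjusted p = 0.0214) was no longer called without DMSO replicate 1 of 92-1 at 24 h, or replicate 2 of MP41 at 4 h or 24 h (0.0508 to 0.0749), nor with library size alone as the scaling (0.111). BIK (1.22 ± 0.47, 0.0234) was no longer called without replicate 3 of 92-1 at either time, replicate 2 of MP41 at 4 h or replicate 3 at 24 h (0.0559 to 0.0995).

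After 24 h of FHT-1015, BCL2 and BAX fell and BMF rose in all 3 lines. Of the 9 tested genes, 7 were called in 92-1 (77.8%, where 60.6% of all genes were called), 3 in MEL202 (33.3%, against 18.8%) and 4 in MP41 (44.4%, against 36.1%). With 9 genes these shares are close to the background, so the counts describe the genes and do not set them apart. The median log2 change of the 9 was -0.13, -0.18 and -0.03 in 92-1, MEL202 and MP41, beside -0.00082, -0.01 and 0.07 over all genes tested.

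BCL2 (chromosome 18, 63123346 to 63320128, minus strand, GRCh38), the founding survival gene, showed the largest fall among the 9 genes at 24 h in MEL202 and MP41. In MP41 its DMSO libraries read 30.6, 29.4 and 30.5 CPM and its FHT-1015 libraries 2.79, 4.08 and 4.25 CPM. The treated level was 0.123 times the DMSO level, and the groups did not overlap. The log2 change was -2.92 ± 0.16 (edgeR adjusted p = 1.11e-07). In 92-1 the 24 h values were 192, 164 and 169 CPM in DMSO and 70.6, 70.2 and 72.1 with FHT-1015. The change was -1.25 ± 0.09 (2.11e-08), and the treated libraries lay within 2 CPM of each other. In MEL202 they were 96.5, 158 and 127 CPM in DMSO and 43.4, 40.2 and 47.3 with FHT-1015, a change of -1.498 ± 0.25 (0.000927). Every treated library was below every DMSO library in each line, and none of these 3 calls was lost on leaving out any 1 library or under any alternative setting tried.

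The other survival genes were not called at 24 h by edgeR. MCL1 (chromosome 1, 150574551 to 150579738) was called in no line at 24 h by edgeR, with 95% intervals of the log2 change of -0.27 to 0.02 in 92-1, -0.38 to 0.49 in MEL202 and -0.15 to 0.51 in MP41. With limma-voom MCL1 passed in 92-1 (-0.15, adjusted p = 0.026) and, in the other direction, in MP41 (0.37, 0.00165). BCL2L1 (chromosome 20, 31664452 to 31723989) was at -0.06 ± 0.11 in 92-1 and -0.18 ± 0.20 in MEL202. In MP41 its DMSO libraries read 42.3, 48.4 and 32.3 CPM and its treated ones 27.5, 28.9 and 26.1, a change of -0.47 ± 0.18 that missed the threshold (edgeR adjusted p = 0.0529). The MP41 libraries did not overlap, and the change passed in 6 of the 8 alternative settings, among them the sum of the stranded columns, which counts the part under ABALON (-0.53, adjusted p = 0.0154). It also passed without DMSO replicate 3 at 24 h (-0.68, 0.00294) and without FHT-1015 replicate 1 or 3 of the 4 h group (0.0304 and 0.0406). With FHT-1015, BCL2A1 had 0 reads in 14 of 18 libraries and at most 4 in the others.

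BAX (chromosome 19, 48954815 to 48961798), the effector that forms the pore, fell with FHT-1015 at 24 h. In 92-1 it read 145, 134 and 134 CPM in DMSO and 91.8, 75.1 and 73.4 with the drug, a log2 change of -0.73 ± 0.09 (edgeR adjusted p = 4.05e-06). The MEL202 libraries read 139, 86.2 and 126 CPM without the drug and 54.9, 71.7 and 65.7 with it. Those of MP41 read 137, 157 and 106 CPM without it and 76.4, 102 and 96.8 with it. The groups did not overlap in any line, and the DMSO libraries spread more widely than the treated ones in MEL202 and MP41. The calls there were marginal: -0.81 ± 0.26 in MEL202 (0.0458) and -0.44 ± 0.16 in MP41 (0.041). The MEL202 call was lost without DMSO replicate 1 or 3 or any 1 treated replicate at 24 h, or FHT-1015 replicate 1 or 3 at 4 h (adjusted p 0.0505 to 0.172). The MP41 call was lost without any 1 DMSO replicate at 4 h, DMSO replicate 1 or 2 at 24 h, FHT-1015 replicate 2 at 4 h, or FHT-1015 replicate 1 or 3 at 24 h (0.0531 to 0.136). It was also lost with no filter on low counts (0.0859) and when just the 6 libraries of that contrast were fitted (0.123).

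**Figure D2:**
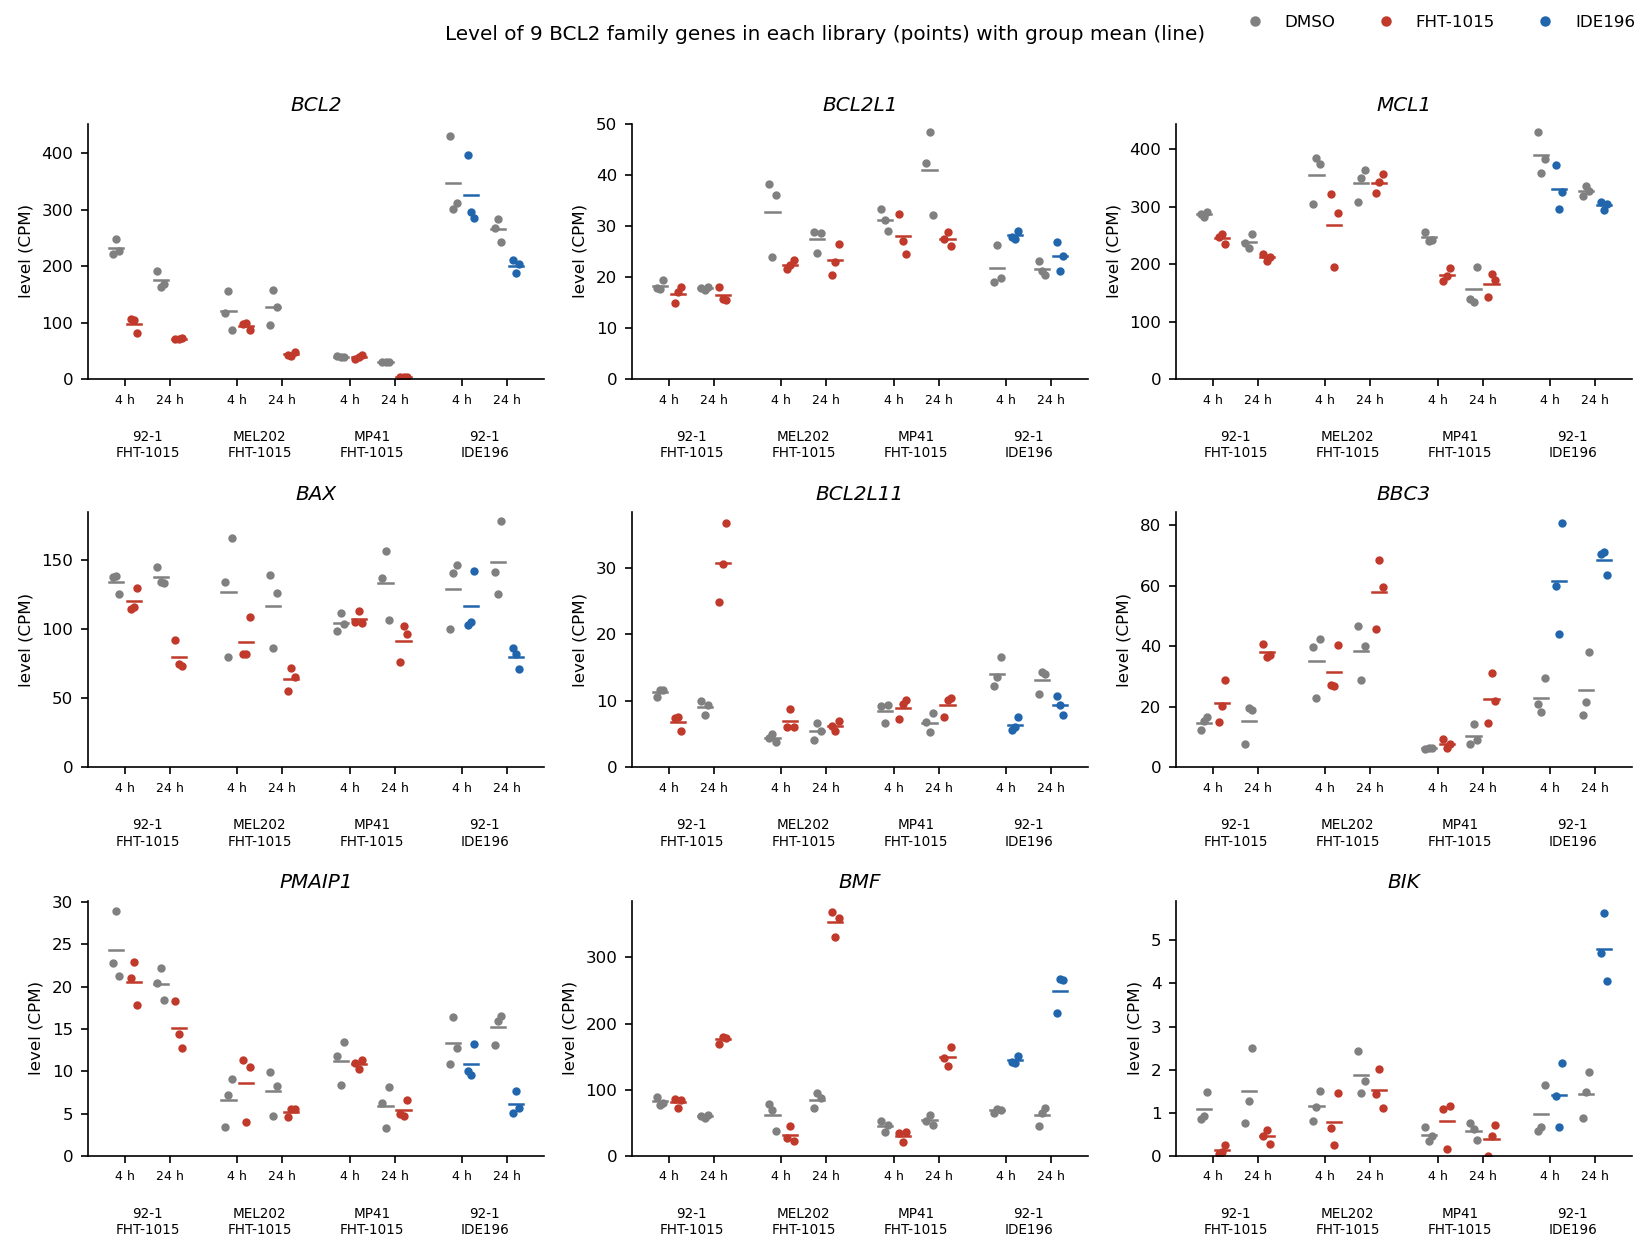
TMM-normalised CPM of 9 BCL2 family genes in each of the 48 libraries (points) with the mean of each group of 3 (lines), by experiment and time (DMSO grey, FHT-1015 red, IDE196 blue). BCL2 is lower and BMF higher at 24 h with FHT-1015 in all 3 lines, while BCL2L11 is high in 92-1 with FHT-1015 at 24 h.

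BMF (chromosome 15, 40087890 to 40108892), a BH3-only sensitiser first described as bound to a myosin motor complex, gave the largest rise in MEL202 and MP41 and the second-largest in 92-1, after BCL2L11. In MEL202 at 24 h it read 72.8, 95.4 and 87.1 CPM in DMSO and 369, 331 and 359 with FHT-1015, 4.15 times the DMSO level. The log2 change was 2.10 ± 0.31 (edgeR adjusted p = 0.000454). In 92-1 it went from 60.3, 57.9 and 62.5 CPM to 169, 180 and 179, a change of 1.60 ± 0.09 (7.74e-10). In MP41 it went from 53.1, 61.4 and 47.0 CPM to 147, 135 and 164, a change of 1.57 ± 0.21 (6.24e-05). Every treated library was above every DMSO library, and these calls held under every alternative and with any 1 library left out. BMF overlaps the antisense gene BMF-AS1 over 8.46% of its exon bases, and its stranded columns summed to 1.22 times its unstranded reads.

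BBC3 (chromosome 19, 47220822 to 47232766) rose in 92-1 and MP41. In 92-1 at 24 h it read 7.89, 19.5 and 18.9 CPM in DMSO and 40.9, 36.5 and 37.1 with FHT-1015, a log2 change of 1.36 ± 0.28 (edgeR adjusted p = 0.000555). In MP41 it went from 7.88, 14.3 and 8.98 CPM to 14.8, 31.2 and 21.9, a change of 1.23 ± 0.28 (0.00353), and its lowest treated library lay just above its highest DMSO library. In MEL202 the values were 46.7, 28.95 and 40.3 CPM in DMSO and 45.8, 68.6 and 59.7 with the drug. These overlapped, and the change of 0.64 ± 0.27 was not called (0.12), though it passed when just the 6 libraries of that contrast were fitted (0.0269) and with limma-voom (0.00195). The difference of the BBC3 effect among the lines was not past the threshold either (0.417).

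BCL2L11 (chromosome 2, 111119378 to 111168447), which binds all the survival proteins and activates BAX, rose in 92-1 with FHT-1015 at 24 h. Its DMSO libraries read 9.92, 7.95 and 9.31 CPM and its treated libraries 24.8, 30.6 and 36.7, 3.39 times the DMSO level, with no overlap. The log2 change was 1.81 ± 0.16 (edgeR adjusted p = 8.35e-08). In MEL202 the values were 4.10, 6.69 and 5.48 CPM against 6.15, 5.45 and 6.995, a change of 0.24 ± 0.27 that was not called (0.604). In MP41 they were 6.83, 5.29 and 8.12 CPM against 7.59, 10.1 and 10.5, a change of 0.57 ± 0.21 that missed the threshold (0.0531). The MP41 change passed in 4 of the 8 alternative settings (0.56 to 0.68) and without DMSO replicate 3 (0.0185) or FHT-1015 replicate 1 (0.0433) of the 24 h groups. Part of BCL2L11, 10.9% of its exon bases, lies opposite the lincRNA gene MIR4435-2HG, and its stranded columns summed to 1.24 times its unstranded reads.

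PMAIP1, whose product binds MCL1, and BIK, whose product sits at the endoplasmic reticulum, fell at 24 h in 92-1 and were called in neither other line by edgeR. PMAIP1 (chromosome 18, 59899948 to 59904306) read 20.5, 22.2 and 18.4 CPM in DMSO and 18.3, 14.4 and 12.7 with FHT-1015 in 92-1, a log2 change of -0.38 ± 0.15 (edgeR adjusted p = 0.0383). That call was lost without DMSO replicate 1 or 2 or FHT-1015 replicate 2 or 3 (0.055 to 0.185) and with library size alone as the scaling (0.0847). PMAIP1 stood at -0.50 ± 0.41 in MEL202, where it passed with limma-voom (adjusted p = 0.0258), and at -0.03 ± 0.28 in MP41. BIK (chromosome 22, 43110748 to 43129712) rests on few reads: 16, 21 and 41 in the DMSO libraries and 7, 8 and 5 in the treated ones. Per read counted in genes the treated ratio was 0.33, with a 95% interval of 0.191 to 0.544 for counting error only. The fitted change was -1.70 ± 0.52 (0.0106), and it was lost without DMSO replicate 3 (-1.13, 0.0831) or FHT-1015 replicate 3 (-1.42, 0.0568). BIK had 0 to 63 reads in the 24 h libraries of MEL202 and MP41.

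At 4 h FHT-1015 already lowered BCL2 in 92-1, while none of the 9 tested genes was called in MEL202 or MP41 by edgeR. In 92-1, 4 of 9 genes fell and 0 rose (44.4%, where 29.5% of all genes were called and 16.7% were lower). BCL2 read 221, 248 and 228 CPM in DMSO and 105, 105 and 81.8 with the drug, a log2 change of -1.23 ± 0.09 (edgeR adjusted p = 1.24e-07). BCL2L11 fell from 10.6, 11.7 and 11.7 CPM to 7.48, 7.62 and 5.47, a change of -0.69 ± 0.16 (0.00427), the opposite direction to its rise at 24 h. BIK had 15, 17 and 24 reads in DMSO and 1, 2 and 4 with FHT-1015, a ratio of 0.109 with a 95% interval of 0.042 to 0.24 for counting error only. The fitted BIK change was -3.14 ± 0.64 (0.00162), and was -2.69 without FHT-1015 replicate 1 and -3.90 without FHT-1015 replicate 3, called in both. MCL1 fell by 0.20 ± 0.07 on the log2 scale (0.0347), from 288, 282 and 291 CPM to 247, 253 and 235. The MCL1 call was lost on leaving out any 1 of the 6 libraries compared (0.0563 to 0.111), with library size alone (0.07), with no filter (0.287) and with only the 6 samples fitted (0.0717). BBC3, at 0.55 ± 0.28 and not called (0.154), passed with no filter on low counts (0.000366) and without DMSO replicate 1 of the 24 h group (0.0419). Below 0, BCL2L1 passed with the sum of the stranded columns (-0.26, edgeR adjusted p = 0.0446) and BAX with limma-voom (-0.18, adjusted p = 0.0364).

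In MEL202 and MP41 at 4 h, edgeR called 0 of these 9 genes, and 0.679% and 0.225% of all genes. At an unadjusted p under 0.05, BCL2L1, BCL2L11 and BMF passed in MEL202 (3 genes) and MCL1 and BMF in MP41 (2 genes). DESeq2 also called 0 in both lines, and limma-voom with quality weights called 1 in MEL202 (BMF) and 2 in MP41 (MCL1 and BMF). BMF was the furthest from its controls in MEL202, at 79.1, 69.9 and 37.1 CPM in DMSO and 26.5, 45.0 and 22.2 with FHT-1015. Its change of -0.97 ± 0.31 was not called (adjusted p = 0.248). Without FHT-1015 replicate 2, the library with the fewest genes detected, it was -1.36 (0.0482). BCL2 in MP41 read 41.3, 38.3 and 38.6 CPM in DMSO and 36.3, 38.6 and 42.5 with the drug at 4 h, a 95% interval of -0.32 to 0.31 on the log2 scale. The fall of BCL2 in MP41 was thus seen at 24 h and not at 4 h, and the effect at the later time was lower by 2.91 ± 0.22 (4.66e-06).

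**Figure D3:**
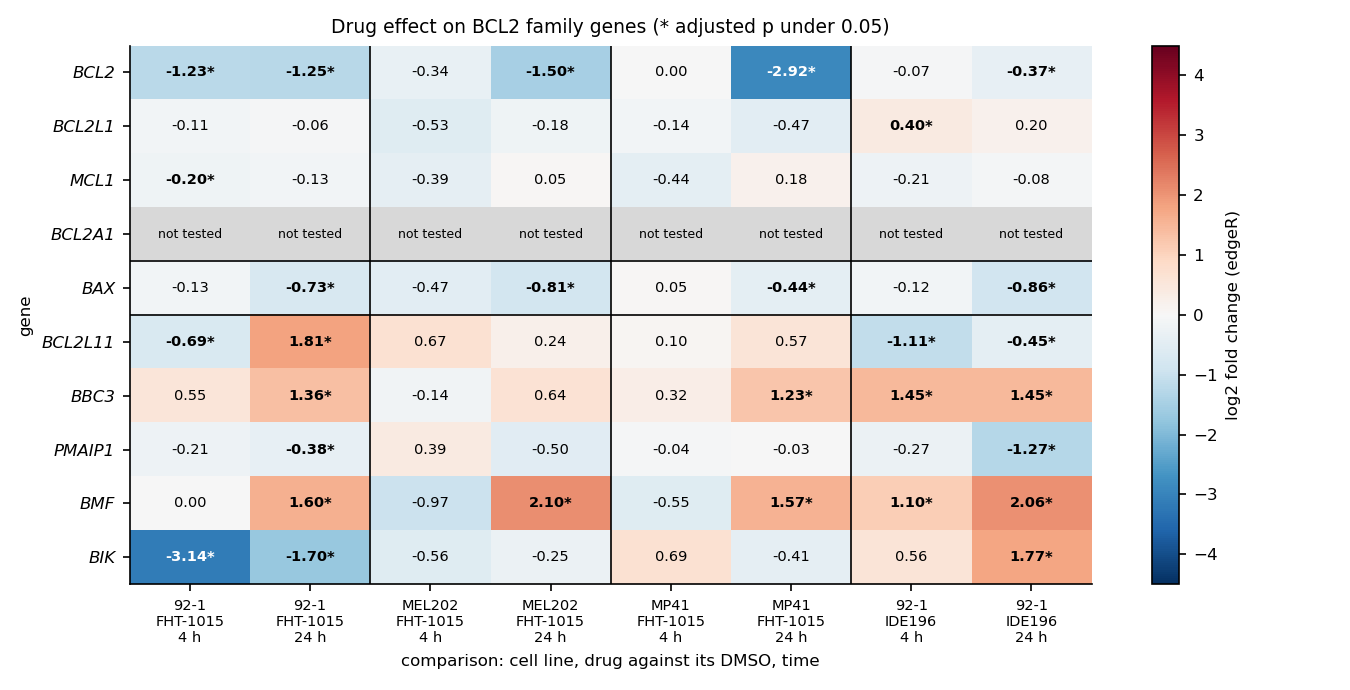
Log2 fold change of each BCL2 family gene against its own DMSO (edgeR) in the 8 comparisons of line, drug and time, with a star where the adjusted p was under 0.05. The 24 h columns share a fall of BCL2 and BAX and a rise of BMF, and BCL2L11 in 92-1 is above 0 with FHT-1015 at 24 h and below 0 in the other comparisons of that line.

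The effects differed between 24 h and 4 h for 3 of 9 genes in 92-1 (BCL2L11, BMF and BAX, against 45.5% of all genes), 1 in MEL202 (BMF, against 6.89%) and 2 in MP41 (BCL2 and BMF, against 18.6%). BMF is the gene of all 3 sets: it lay at 0.00 at 4 h and 1.60 at 24 h in 92-1, at -0.97 and 2.10 in MEL202, and at -0.55 and 1.57 in MP41. With IDE196 the difference was called for 4 genes (BCL2L11, PMAIP1, BMF and BAX, against 30.7% of all genes).

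The FHT-1015 effect on BCL2 and BCL2L11 differed among the lines. At 24 h these were 2 of 9 genes (22.2%, against 12% of all genes), with edgeR adjusted p of 1.28e-05 for BCL2 and 0.000587 for BCL2L11. BCL2 fell by 2.92 in MP41, by 1.5 in MEL202 and by 1.25 in 92-1. BCL2L11 rose by 1.81 in 92-1, beside 0.57 in MP41 and 0.24 in MEL202. Both calls held on leaving out any 1 of the 36 libraries. At 4 h the same genes were called (22.2%, against 1.38% of all genes): BCL2 at -1.23 in 92-1, -0.34 in MEL202 and near 0 in MP41 (0.00964), and BCL2L11 at -0.69, 0.67 and 0.10 in that order (0.0421). The 4 h call for BCL2 was lost without FHT-1015 replicate 3 of 92-1 (0.053), and that for BCL2L11 in 23 of the 36 fits that left out 1 library (up to 0.155, without the same replicate). Neither passed where only the samples of that time were fitted (0.05 and 0.112), and BCL2L11 did not pass with no filter on low counts (0.145).

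IDE196 raised BMF and BBC3 in 92-1 at both times. At 4 h, 4 of 9 genes were called (44.4%, against 16.2% of all genes), 3 higher (6.89% of all genes) and 1 lower (9.3%). BBC3 read 21.1, 18.3 and 29.5 CPM in DMSO and 59.9, 44.2 and 80.7 with IDE196, a log2 change of 1.45 ± 0.25 (edgeR adjusted p = 0.000456). BMF went from 64.8, 71.1 and 69.9 CPM to 143, 141 and 151, a change of 1.10 ± 0.13 (1.61e-05), and its replicates lay close together in both groups. BCL2L11 fell from 12.2, 13.5 and 16.6 CPM to 5.60, 6.09 and 7.61, a change of -1.11 ± 0.17 (0.000162). BCL2L1 rose from 19.1, 26.2 and 19.9 CPM to 27.9, 27.6 and 29.1, a change of 0.40 ± 0.12 (0.033). The BCL2L1 call was lost without DMSO replicate 4 or 6 or any 1 IDE196 replicate (0.0682 to 0.14) and where only the 4 h samples were fitted (0.0608).

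At 24 h of IDE196, 7 of 9 genes were called (77.8%, against 58.1%), 3 higher (28.7% of all genes) and 4 lower (29.4%). BMF reached 215, 267 and 266 CPM from 45.6, 65.4 and 72.5 in DMSO, 4.08 times the DMSO level, a log2 change of 2.06 ± 0.13 (edgeR adjusted p = 1.07e-09). BBC3 read 17.4, 21.5 and 38.2 CPM in DMSO and 70.6, 71.4 and 63.6 with the drug, a change of 1.45 ± 0.24 (6.7e-05), so its rise at 4 h was still present. BIK rose from 18, 28 and 41 reads to 101, 108 and 69 reads, a change of 1.77 ± 0.39 (0.000934). PMAIP1 fell from 13.2, 15.9 and 16.6 CPM to 5.12, 7.68 and 5.65, a change of -1.27 ± 0.19 (1.53e-05). BAX fell from 141, 126 and 178 CPM to 86.2, 82.0 and 71.2, a change of -0.86 ± 0.16 (0.000134). The IDE196 and DMSO libraries did not overlap for these 5 genes, nor for BCL2, BCL2L11 and the uncalled MCL1, while those of BCL2L1 overlapped. How many of all genes were separated in this way was not counted. BCL2 went from 268, 284 and 243 CPM to 211, 188 and 203, and BCL2L11 from 11.1, 14.4 and 14.0 to 10.8, 9.40 and 7.89. The falls of BCL2 (-0.37 ± 0.14, adjusted p = 0.0285) and BCL2L11 (-0.45 ± 0.16, 0.0246) were smaller. The BCL2 call was lost without DMSO replicate 4 or 5 or IDE196 replicate 2 (0.0618 to 0.0942) and with library size alone (0.0701). That of BCL2L11 was lost without DMSO replicate 5 or 6 or IDE196 replicate 2 or 3 (0.0542 to 0.104). MCL1 was called at neither time, with 95% intervals of -0.41 to -0.02 at 4 h and -0.27 to 0.12 at 24 h. At 4 h it passed in 1 of the 12 fits that left out 1 library (edgeR adjusted p = 0.0484).

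The 2 drugs differed in 92-1 on BCL2, BCL2L11 and BIK. Each effect was taken against its own DMSO set, and doses are not given, so the drugs are compared as used. The DMSO levels of the 2 sets differed in 6 of the 9 genes. A difference between the drugs therefore cannot be told apart from a difference between the sets in how the cells respond. At 24 h, 5 of 9 genes differed (55.6%, against 33% of all genes). The FHT-1015 effect was above the IDE196 effect by 2.26 ± 0.23 log2 units for BCL2L11 (edgeR adjusted p = 1.4e-08) and by 0.89 ± 0.25 for PMAIP1 (0.00725). It was below it by 0.88 for BCL2 (-0.88 ± 0.18, 0.00026), by 3.46 for BIK (-3.46 ± 0.69, 0.000267) and by 0.46 for BMF (-0.46 ± 0.17, 0.0355). The BMF difference was lost without DMSO replicate 1 or 3 or FHT-1015 replicate 1 or 3 of that set, or DMSO replicate 4 or IDE196 replicate 2 or 3 of the other (0.0563 to 0.155). It was also lost with library size alone (0.0519) and with only the 24 h samples (0.0598). For BAX the difference was 0.12 with a 95% interval of -0.28 to 0.53, for MCL1 -0.05 (-0.29 to 0.19), for BBC3 -0.08 (-0.92 to 0.75) and for BCL2L1 -0.26 (-0.61 to 0.08). These 4 differences were not called, which does not show that the drugs act alike on them.

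At 4 h, 4 of 9 genes differed between the drugs (44.4%, against 24.6%), each lower with FHT-1015 (14% of all genes). They were BCL2 (-1.16 ± 0.17, edgeR adjusted p = 1.29e-05), BMF (-1.11 ± 0.17, 1.62e-05), BIK (-3.72 ± 0.83, 0.00142) and BCL2L1 (-0.51 ± 0.16, 0.0214). BCL2L11 fell with both drugs at 4 h, and the difference of 0.42 ± 0.24 was not called (0.231). The BCL2L1 difference was lost without DMSO replicate 3 or FHT-1015 replicate 1, or DMSO replicate 4 or 6 of the IDE196 set (0.0578 to 0.0707), and with no filter on low counts (0.0909).

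**Figure D4:**
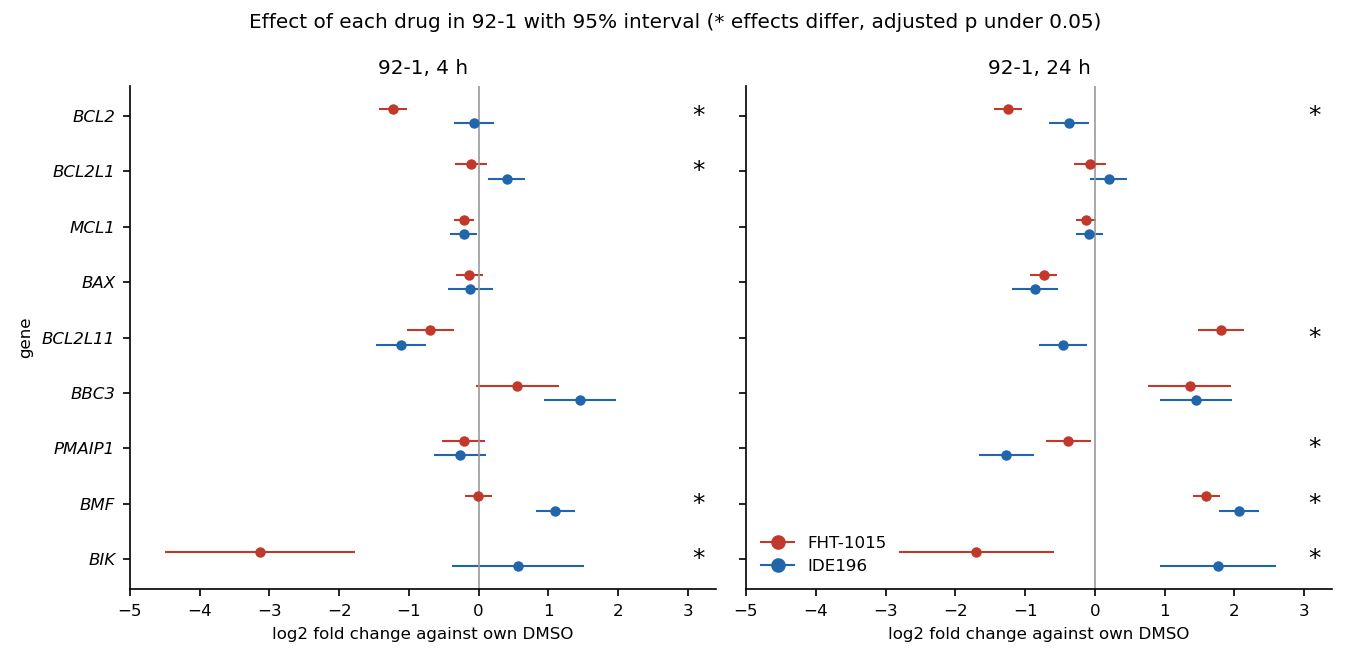
Log2 fold change with its 95% interval (edgeR) for FHT-1015 (red) and IDE196 (blue) in 92-1, each against its own DMSO, at 4 h (left) and 24 h (right), with a star where the effects differ at an adjusted p under 0.05. BCL2L11 at 24 h lies at 1.81 with FHT-1015 and -0.45 with IDE196.

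The remaining BCL2 family genes, the apoptosis machinery and the known upstream regulators give the setting. Of 13 other family genes, 10 were tested, and with FHT-1015 at 24 h 6 were called in 92-1 (1 higher, 5 lower), 1 in MEL202 (lower) and 7 in MP41 (3 higher, 4 lower), where 60.6%, 18.8% and 36.1% of all genes were called. Their median log2 changes were -0.24, -0.26 and -0.41. HRK, a BH3-only gene of neurons and neural crest derivatives, was the 1 gene called in the same direction in all 3 lines. It went from 13.7 ± 1.04 to 1.81 ± 0.24 CPM (SD, n = 3) in 92-1. The MEL202 means were 25.3 ± 2.95 and 1.08 ± 0.35 CPM, and those of MP41 19.8 ± 2.66 and 5.60 ± 1.48. The log2 changes were -2.88, -4.49 and -1.72 (edgeR adjusted p of 2.23e-05 or less). HRK fell at 4 h as well in 92-1 (-2.45 ± 0.13) and MEL202 (-1.57 ± 0.27, 0.0166), where it was the 1 other family gene called. With IDE196 HRK rose, by 0.98 ± 0.14 at 4 h and 0.90 ± 0.15 at 24 h. With IDE196 at 24 h 8 of the 10 were called, 4 higher and 4 lower, beside 58.1% of all genes: BNIP3L, a mitophagy receptor, rose by 1.35, BID, which links death receptors to mitochondria, fell by 1.22, and BCL2L12 fell by 0.95.

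Downstream, 20 of 22 genes of the caspases, their inhibitors, death receptors and mitochondrial factors were tested in 92-1 and MP41 and 19 in MEL202. With FHT-1015 at 24 h, 15 were called in 92-1 (5 higher, 10 lower), 4 in MEL202 (2 higher, 2 lower) and 10 in MP41 (4 higher, 6 lower), beside the same 60.6%, 18.8% and 36.1% of all genes, with median changes of -0.25, 0.11 and 0.10. BIRC7, the melanoma-associated caspase inhibitor livin and a known MITF target, fell from 86.0 ± 8.74 to 4.98 ± 0.50 CPM in 92-1. In MEL202 it stood at 28.6 ± 7.55 CPM in DMSO and 1.34 ± 0.83 with the drug, and in MP41 at 87.2 ± 16.3 and 8.74 ± 2.22. CASP9, the initiator caspase of the apoptosome, rose from 3.02 ± 0.30 to 14.2 ± 1.98 CPM in 92-1. In MEL202 it stood at 6.5 ± 1.2 CPM in DMSO and 17.1 ± 1.61 with the drug, and in MP41 at 8.87 ± 1.41 and 16 ± 2.70. Both moved in the same direction with IDE196 at 24 h, BIRC7 by -1.33 ± 0.13 and CASP9 by 0.94 ± 0.16. With IDE196 at 24 h 11 of 20 were called, 6 higher and 5 lower, beside 58.1% of all genes, and besides BIRC7 the largest changes were those of CYCS, cytochrome c (-1.60), and CASP8 (1.26).

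Upstream, 17 regulators were listed, of which 16 were tested in the FHT-1015 experiment of 92-1 and 17 in the others. With FHT-1015 at 24 h, 8 were called in 92-1 (4 higher, 4 lower), 6 in MEL202 (2 higher, 4 lower) and 9 in MP41 (4 higher, 5 lower), again beside 60.6%, 18.8% and 36.1% of all genes, with median changes of -0.03, -0.22 and -0.15. MITF, the melanocyte lineage factor, fell by 1.65, 1.91 and 2.56 on the log2 scale in 92-1, MEL202 and MP41. E2F1, which drives S phase genes and can activate BH3-only genes, fell by 3.13, 2.24 and 2.19. FOXO1, a forkhead factor of growth factor withdrawal, rose by 1.69, 1.25 and 1.37. With IDE196 at 24 h 13 of 17 were called (8 higher, 5 lower, beside 58.1% of all genes), led by falls of EGR1 (-4.07) and E2F1 (-3.76) and a rise of FOXO1 (2.27), while MITF stood at 0.10 ± 0.09 and was not called (edgeR adjusted p = 0.356).

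**Figure D5:**
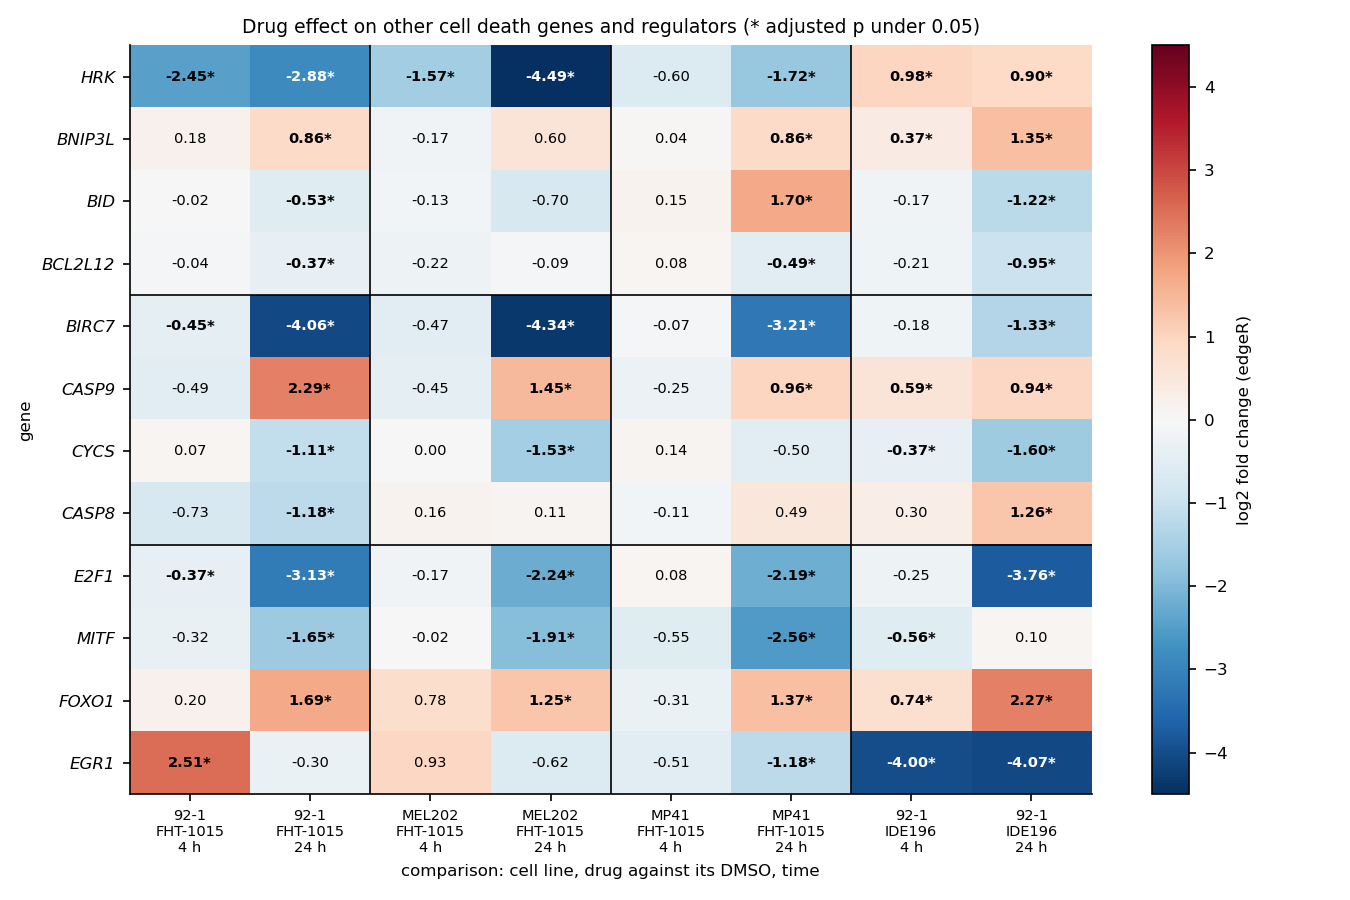
Log2 fold change (edgeR) of the other cell death genes and upstream regulators named in the text, in the 8 comparisons of line, drug and time, with a star where the adjusted p was under 0.05. HRK is below 0 with FHT-1015 and above 0 with IDE196, while BIRC7 is lower and CASP9 and FOXO1 are higher in every 24 h column.

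Over the 16 group means, BCL2 had the widest range of the family, 6.52 log2 units, followed by BIK (4.53) and BMF (3.56), with BBC3 at 3.41, BCL2L11 at 2.76 and PMAIP1 at 2.19. MCL1, BCL2L1 and BAX varied least among the tested genes, over 1.33, 1.29 and 1.2. Among 10491 protein-coding genes with a mean of at least 5 CPM, those whose log2 group means followed BCL2 most closely were COL4A1 (Pearson r = 0.960), SLC6A15 (0.939) and INIP (0.939). For BMF they were CREBRF (0.930), CCNG2 (0.917) and KAT6B (0.910), and for BIK they were CXXC5 (0.902), MYLIP (0.883) and CDKN1C (0.883). These are descriptions over 16 groups that share lines, experiments and drugs. Those of BIK rest on few reads: its libraries of 92-1 with FHT-1015 at 4 h had 1 to 4. Its highest group mean was 4.80 CPM, under the 5 CPM asked of the other genes. Its range is thus set in part by the count of 2 added before taking logs.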

How the data were processed

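RNA was measured by sequencing in 48 libraries of 3 uveal melanoma cell lines. Per the labels' protocols, RNA was selected on poly-T beads and libraries were made with a NEBNext Ultra kit. Reads were counted per gene by the authors, and the deposited files give whole-number counts without strand and for each strand, on hg38 per the submitters' processing notes, which also list limma. The aligner and its settings are not given in the sources used here. The first strand held 49.7% to 50.1% of the stranded reads, so the counts without strand were used, and reads of overlapping antisense genes cannot be told apart. Gene names came from GENCODE 29, which matched 58552 of 58870 genes, and 92 spike-in rows with 0 reads were left out. There were 0 columns of no sample.

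Tests were run with edgeR 4.0.16 in R 4.3.3 (TMM scaling, the filterByExpr default filter, quasi-likelihood F-tests, Benjamini-Hochberg adjustment over all genes tested, threshold 0.05). Each experiment was fitted with its 4 groups, the 3 lines together for line differences, and both 92-1 experiments together for drug differences. CPM values are TMM-normalised over all 48 libraries. Log2 changes carry standard errors, and intervals are 95%. The scripts were tested on simulated data. Alternatives were RLE and library-size scaling, no filter, DESeq2 1.42.0, limma 3.58.1 (voom with quality weights), summed stranded columns, only the samples compared, a replicate block and leaving out each library. Depth was 11394088 to 32317711 reads in genes per library, and intervals and floors of reads cover counting error only. All replicate pairs differed beyond sampling noise (chi-square per degree of freedom of 4.18 to 180). The labels call the replicates biological and say nothing more of their source, so p-values measure the spread between these samples.

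The members and gene lists were chosen with earlier results of these data known. All 10 members are named. From each other list the text names up to 3 genes called in the same direction in all lines with FHT-1015 at 24 h, by their smallest change, and up to 3 with the largest change with IDE196 at 24 h, plus MITF. Some genes of the lists are not reported here by name. Genes of like pattern are the 3 with the highest Pearson r for each of the 3 members of widest range.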

Additional observations from a re-analysis of the deposited data

Results flagged for a closer look

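The following effects differed between times or lines by an interaction test in edgeR, and each is the effect at 24 h minus the effect at 4 h on the log2 scale unless said otherwise. In 92-1 with FHT-1015, BCL2L11 moved from a fall to a rise, a difference of 2.50 ± 0.22 (SE, adjusted p = 4.15e-07). BMF differed by 1.60 ± 0.13 (1.26e-07) and BAX by -0.60 ± 0.13 (0.00112) there. BMF also differed in MEL202, by 3.07 ± 0.44 (0.00122), and in MP41, by 2.12 ± 0.29 (0.000281). In MP41 the fall of BCL2 belonged to the later time, with a difference of -2.91 ± 0.22 (4.66e-06).

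With IDE196 in 92-1, BMF differed by 0.96 ± 0.18 (edgeR adjusted p = 0.000716) and PMAIP1 by -1.0 ± 0.26 (0.00662). BAX differed by -0.74 ± 0.22 (0.0158), which was lost without DMSO replicate 6 at 24 h (0.0519) or IDE196 replicate 3 at 4 h (0.0506). BCL2L11 differed by 0.66 ± 0.23 (0.0411), which was lost without DMSO replicate 6 at 4 h, DMSO replicate 4 or 6 at 24 h, or IDE196 replicate 1 or 2 at either time (0.051 to 0.113), and with the sum of the stranded columns (0.0935).

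The FHT-1015 effect differed among the 3 lines for BCL2, with an edgeR adjusted p of 0.00964 at 4 h and 1.28e-05 at 24 h. It differed for BCL2L11 with 0.0421 at 4 h and 0.000587 at 24 h. The 4 h values were lost for both genes without FHT-1015 replicate 3 of 92-1 (0.053 and 0.155).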

How the results depend on the processing

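Of 72 drug effects tested on the family, 29 were called by edgeR, and 21 of these kept their call under every alternative and with any 1 library left out. Of the 29, 24 kept it under every alternative other than leaving out a library, and 0 reversed. Uncalled effects near 0 changed sign. BMF in 92-1 at 4 h was 0.00723 with RLE, 0.0292 with library size alone, 0.0169 with no filter, 0.0069 with DESeq2, 0.0577 with summed strands and 0.00448 with only the samples compared. BCL2L1 in 92-1 at 24 h was 0.00685 with library size alone and 0.0213 with summed strands, and BCL2 in MP41 at 4 h was 0.0126 with limma-voom. On leaving out 1 library, the log2 changes ranged from -0.0487 to 0.0746 (BMF, 92-1, 4 h), -0.367 to 0.0255 (BBC3, MEL202, 4 h), -0.0174 to 0.0938 (MCL1, MEL202, 24 h) and -0.232 to 0.118 (BCL2, IDE196, 4 h). In MP41 they ranged from -0.0209 to 0.0298 (BCL2), -0.0382 to 0.205 (BCL2L11) and -0.214 to 0.105 (PMAIP1) at 4 h, and from -0.323 to 0.219 (PMAIP1) and -1.12 to 0.0939 (BIK) at 24 h.

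Counts of members called moved most with limma-voom with quality weights. It called 1 in MEL202 and 2 in MP41 at 4 h, where edgeR and DESeq2 called 0, 5 in MEL202 (edgeR 3) and 7 in MP41 (edgeR 4) at 24 h. Over all genes at 24 h it called 8824 in MEL202 (edgeR 2984) and 9435 in MP41 (edgeR 5617). It called 4 and 6 line differences at 4 h and 24 h (edgeR 2 and 2), and 2 and 5 time differences in MEL202 and MP41 (edgeR 1 and 2). No filter called 1 in MEL202 at 4 h and 2 time differences there, and DESeq2 also called 2 of these. With only the samples compared, 1 was called in MP41 at 4 h and 0 line differences at 4 h. On leaving out 1 library the counts ranged from 0 to 1 in MEL202 at 4 h, 1 to 2, 2 to 4 and 2 to 5 for time differences in MEL202, MP41 and IDE196, and 0 to 2 for line differences at 4 h. The cause of these moves was not tested.

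Replicate numbers were shared between FHT-1015 and DMSO, and the labels do not say whether they mark a shared batch. The deviations of same-numbered libraries correlated above 0.1 in 12 of 18 pairs (-0.59 to 0.77). Of the 18 drug libraries, 13 correlated best with the DMSO library of their own number, where 1 in 3 would without pairing. With the replicate block, 4 and 7 members were called in 92-1, 0 and 3 in MEL202 and 0 and 6 in MP41 (4 without it) at 4 h and 24 h. The genes gained in MP41 were BCL2L1 (adjusted p = 0.0327) and BCL2L11 (0.0463). With the block the log2 change of PMAIP1 in MP41 at 24 h was 0.0201 and was not called. IDE196 and its DMSO samples share no numbers, so no paired analysis was possible there, and the block could not be used for DMSO levels between lines. DESeq2 used a likelihood-ratio test for the line differences. Depth limits BIK, with 0 to 108 reads per library, and BCL2A1, with at most 4.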
